A study of Rattus norvegicus with 14 samples.

Results

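The expression of genes for ribosome biogenesis and polyamine synthesis was followed in cultured heart muscle cells from newborn rats. The list held 46 genes, chosen by symbol with earlier results of these data known. Counts set beside those of all genes are therefore descriptions. Each gene was read through its brightest probe set, the one with the highest mean over all arrays. The platform table paired 44 of the 46 with a probe set of that gene alone, out of 13184 genes measured. Npm1 and Ddx21 found no such probe set and were dropped. The 44 fell into 7 groups by role: 2 polyamine synthesis enzymes, 4 RNA polymerase I subunits, 4 nucleolar scaffold and chaperone proteins, 4 proteins of box C/D and 3 of box H/ACA small nucleolar ribonucleoproteins, 12 small subunit and 15 large subunit assembly factors. Of the 44, only Noc3l had a mean below a log2 value of 6.23, the 30th percentile of all genes, and it was kept.

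The cells were ventricular myocytes from 2-day-old Sprague-Dawley pups, kept without serum before treatment. They were given phenylephrine (PE, 100 µM), a drug that acts on alpha1-adrenergic receptors and makes myocytes enlarge, together with JQ1, an inhibitor of BET bromodomain proteins, or with DMSO, its vehicle. There were 5 groups. Unstimulated cells had DMSO alone for 90 min (3 arrays). At 6 h of PE there were 2 arrays with DMSO and 3 with JQ1, and at 48 h of PE 3 arrays with each. Every group received DMSO or JQ1, and the labels name no JQ1 group without PE. The unstimulated arrays were taken at 90 min, so PE and longer time in culture cannot be told apart in comparisons with them. Between 6 h and 48 h, time in culture and length of treatment change together and cannot be told apart either. The treatment protocol in the labels puts JQ1 or DMSO 6 h ahead of PE and the series' design text puts PE first, so the order is not settled. For JQ1 no concentration is given in the sources used here.

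Ribosomes are built in the nucleolus. RNA polymerase I transcribes the precursor of the large ribosomal RNAs, small nucleolar ribonucleoproteins modify it (box C/D particles methylate riboses, box H/ACA particles form pseudouridine), and assembly factors fold and cut it into the small and large subunits. Polyamines are small cations that bind RNA: Odc1, ornithine decarboxylase, makes putrescine, and Srm, spermidine synthase, turns it into spermidine. Myocyte growth without division raises the demand for ribosomes, and many genes of these steps are known targets of MYC, which binds the E-box CACGTG.

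The medians of the 14 arrays ran from 7.28 to 7.43, and within groups the arrays correlated with each other at 0.9976 to 0.9986. The 3' minus 5' signal of the Gapdh control, by which RNA quality is read, ranged from -0.10 to -0.03, and that of the Hexokinase control from 1.1 to 1.55. All 10 cardiomyocyte markers were above 6.23 in every group, with summed levels of 16.95 to 17.18 on the log2 scale. Fibroblast markers were also present: all 9 were above 6.23 on the unstimulated arrays, with summed levels of 15.67 to 15.70. In such bulk RNA, fewer cells of a type and less RNA per cell cannot be told apart.

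The E-box was searched in the 300 bases around each gene's transcript start (250 before, 50 after; RefSeq, GRCr8). CACGTG reads the same on both strands, so a search of either strand finds it. A window was matched for 40 of the 44 genes, and none was used for Wdr43, Bop1, Rrs1 and Tbl3. CACGTG occurred in 15 of the 40 windows (37.5%), against 2148 of all 33469 windows (6.42%) and 1533 of 21851 windows of protein-coding genes (7.02%). Of its 16 occurrences, 12 began within 50 bases of the start. A match is a stretch of letters and not a measured binding site. The sequences below are those of 7 genes whose values recur in the results, each 30 bases on the gene's strand with the E-box in capitals. The distance is from the transcript start to the first base of the E-box, and positive values count the first transcript base itself.
Rrp12 (chr1:250655298-250655327, minus strand, distance 4): gctgagaatacaCACGTGggttctgctgtg
Srm (chr5:164308817-164308846, plus strand, distance -173): gcccctcggcccCACGTGgcccggcagccg
Fbl (chr1:92597416-92597445, plus strand, distance 22): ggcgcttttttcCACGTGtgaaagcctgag
Gnl3 (chr16:6219790-6219819, minus strand, distance -25): agttccagttcgCACGTGgcgcccgagacg
Utp20 (chr7:25102959-25102988, minus strand, distance -127): cagcactagctaCACGTGagaaaaagcaga
Bysl (chr9:20880361-20880390, plus strand, distance 33): tagccggcttcaCACGTGtaaactttgtgg
Ebna1bp2 (chr5:137433552-137433581, plus strand, distance 31): gcgtcttgctggCACGTGgagtggcagccg

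**Figure D1:**
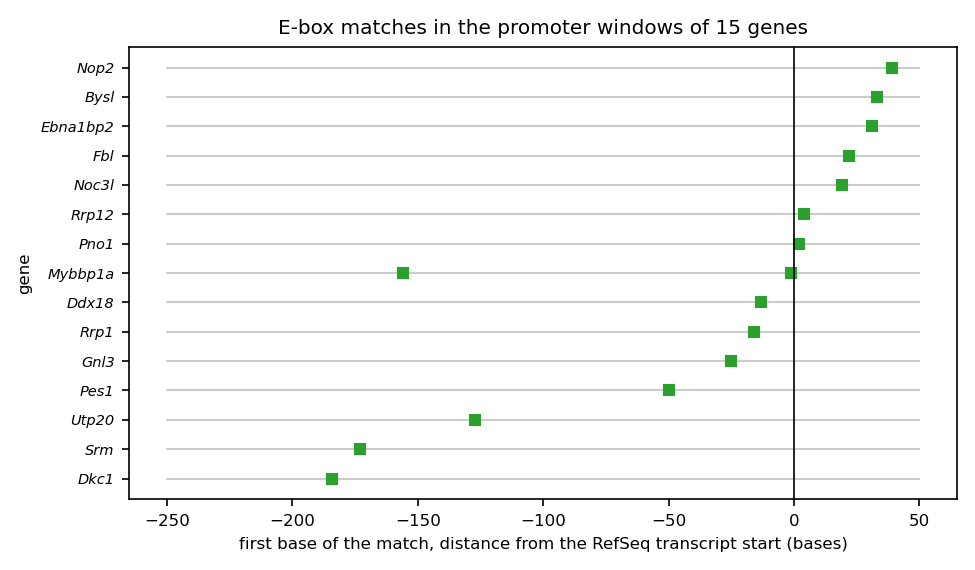
Position of CACGTG in the promoter windows of the 15 genes that hold it. The horizontal axis is the distance in bases from the RefSeq transcript start (vertical line) to the first base of the match. Positive values count the first transcript base itself. Each grey line is the searched window, and most squares lie close to the start, with Mybbp1a holding a pair.

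With PE for 6 h nearly the whole list was higher than in unstimulated cells. Of 44 genes, 40 rose and none fell, against 18.3% raised and 18.9% lowered among all 13184 genes. All 44 differences were above 0, from 0.10 to 1.39, with a median of 0.38 on the log2 scale against 0.013 for all genes. A gene is said to have risen or fallen where limma's adjusted p (Benjamini-Hochberg, over all genes) was below 0.05. Of the 40, 36 passed in all alternative analyses, and Ncl, Ddx18, Noc3l and Tbl3 failed in at least 1. Imp3, Imp4, Pes1 and Dkc1 did not pass, with differences of 0.16, 0.13, 0.14 and 0.10.

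**Figure D2:**
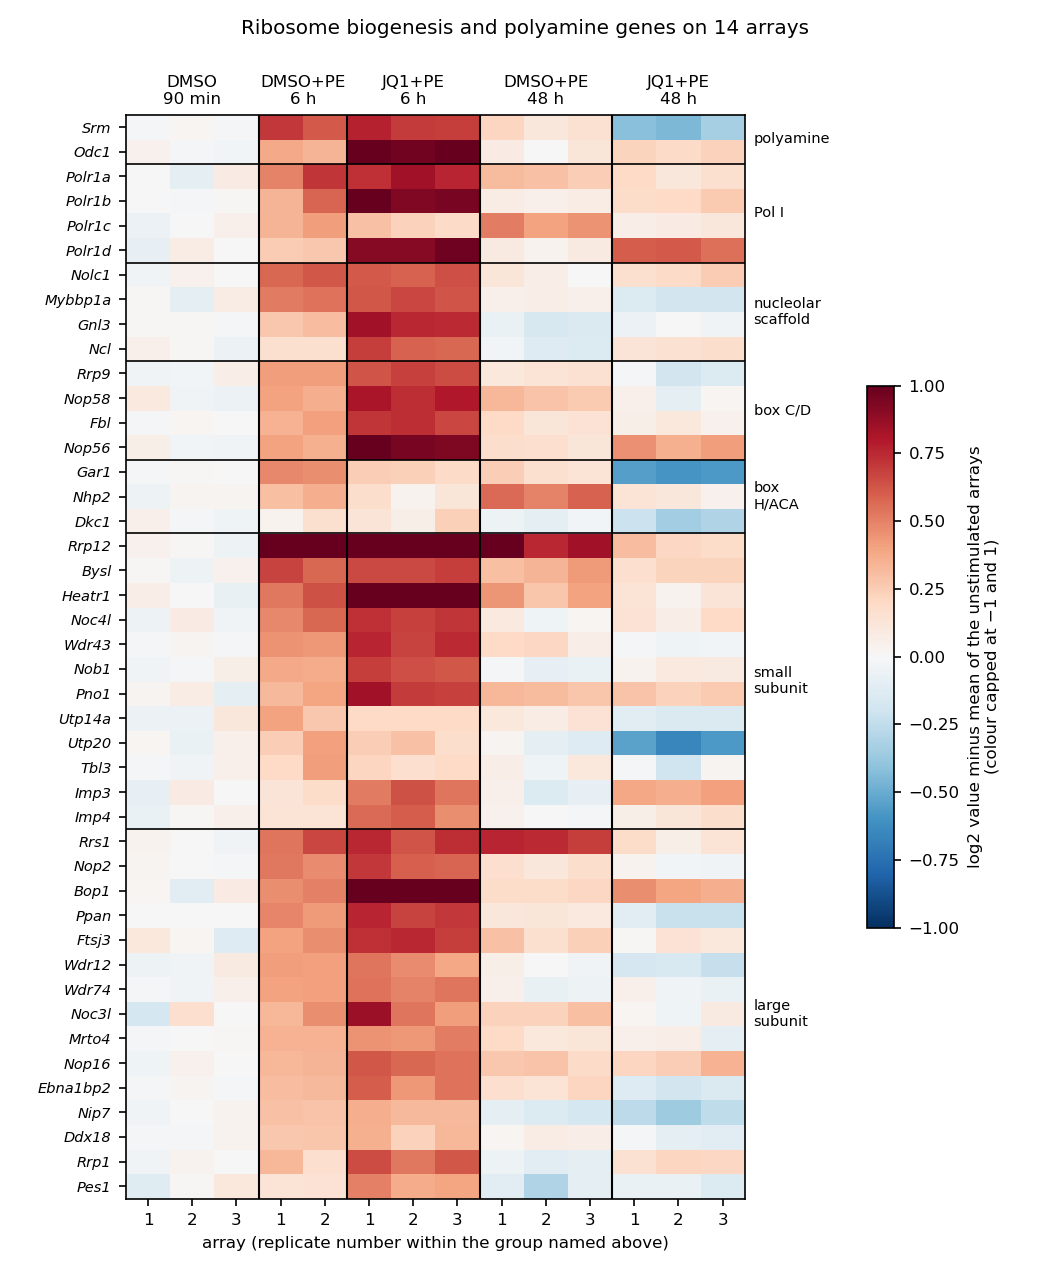
Log2 value minus the mean of the 3 unstimulated arrays, by colour (capped at -1 and 1), for 44 genes (vertical axis, grouped by role) on 14 arrays (horizontal axis). All 44 genes lie above the unstimulated mean on each of the 5 arrays with PE for 6 h, and the 3 arrays of JQ1 with PE for 48 h mix higher and lower genes.

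The gene with the largest rise was Rrp12, a factor for the maturation and export of both subunits (probe set 1383675_at). Its log2 values were 8.22, 8.19 and 8.13 in unstimulated cells and 9.53 and 9.61 with PE for 6 h. The groups lay far apart, a 2.61-fold rise (1.39 ± 0.07, log2 difference ± SE, as below; adjusted p = 2.4e-08). The 2 dimmer Rrp12 probe sets rose by 1.21 and 1.12. Srm, of the polyamine pathway, read 10.12, 10.15 and 10.12 unstimulated and 10.84 and 10.74 with PE, a 1.58-fold rise (0.66 ± 0.05, adjusted p = 4.5e-07). Bysl, bystin of the small subunit, read 8.91, 8.84 and 8.93 and then 9.57 and 9.47 (0.63 ± 0.05, adjusted p = 8.4e-07). For Srm and Bysl, too, both PE arrays were above all 3 unstimulated arrays.

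Both polyamine enzymes rose at 6 h, since Odc1 went from 11.46, 11.40 and 11.39 to 11.79 and 11.75 (0.36 ± 0.04, adjusted p = 3.4e-05). All 4 RNA polymerase I subunits rose: Polr1a, the largest catalytic subunit, by 0.60 ± 0.07, Polr1b, the second, by 0.46 ± 0.06, and Polr1c and Polr1d, which polymerases I and III share, by 0.38 ± 0.05 and 0.26 ± 0.05. Polr1d rested on 1 probe set here, because its dimmer probe set differed by 0.07 ± 0.05 and did not pass.

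All 4 scaffold proteins rose. Nolc1, a nucleolar phosphoprotein that carries small nucleolar ribonucleoproteins, read 9.35, 9.43 and 9.38 unstimulated and 9.96 and 10.01 with PE (0.60 ± 0.05). Mybbp1a, a nucleolar regulator of ribosomal RNA synthesis, rose by 0.53 ± 0.05, and Gnl3, nucleostemin, by 0.29 ± 0.04. Ncl, nucleolin, was 12.40, 12.37 and 12.29 before and 12.52 on both PE arrays, which did not overlap but differed by only 0.16 ± 0.05 (adjusted p = 0.0228).

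The 4 box C/D proteins rose by similar amounts, 0.38 for Fbl, Nop56 and Nop58 and 0.42 for Rrp9, the U3-specific member. Fbl, fibrillarin, the methyltransferase of the particle, read 10.89, 10.93 and 10.92 and then 11.26 and 11.33 (0.38 ± 0.04, adjusted p = 1.2e-05). Of the box H/ACA proteins, Gar1 rose by 0.47 ± 0.04 and Nhp2 by 0.33 ± 0.05. Dkc1, dyskerin, the pseudouridine synthase itself, read 9.88, 9.82 and 9.78 and then 9.86 and 9.99, so its groups overlapped.

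Of the small subunit factors 10 of 12 rose, with a median over all 12 of 0.37. After Rrp12 and Bysl came Heatr1 (0.58 ± 0.06), part of the complex that links polymerase I transcription to processing, and Noc4l (0.53 ± 0.06). Of the large subunit factors 14 of 15 rose, with a median of 0.40. Rrs1, which brings the 5S particle into the large subunit, rose by 0.60 ± 0.06, Nop2, a ribosomal RNA methyltransferase, by 0.50 ± 0.05, and Bop1 by 0.48 ± 0.05. Bop1 works in a trimer with Pes1 and Wdr12, and Wdr12 rose by 0.41 ± 0.06.

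At 48 h of PE fewer of the genes were above unstimulated cells. Of the 44, 22 were raised and 2, Gnl3 (-0.12 ± 0.04) and Nip7 (-0.14 ± 0.04), were lowered. The background was 21.4% raised and 22.6% lowered, and the median was 0.12 against 0.006 for all genes. The count lowered was 4 without array 1 of DMSO with PE for 48 h and 1 without array 2 of that group or array 2 of the unstimulated group. Rrp12 stayed highest (0.87 ± 0.06, 1.82-fold), followed by Rrs1 (0.73 ± 0.05), Nhp2 (0.55 ± 0.05), Polr1c (0.45 ± 0.04), Heatr1 (0.37 ± 0.06), Bysl (0.36 ± 0.04), Pno1 (0.31 ± 0.05) and Nop58 (0.29 ± 0.05). All 4 box C/D proteins were raised. By its brightest probe set no scaffold protein was raised in the limma fit (0 at an unadjusted p below 0.05), but a second Nolc1 probe set (1368032_at), nearly as bright, rose by 0.26 ± 0.04 (adjusted p = 3.5e-04 among all probe sets).

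Compared directly, 48 h lay below 6 h of PE for most of the list: 35 genes fell and 1 rose, against 18.4% lowered and 16.3% raised among all genes. The median was -0.28 against -0.011 for all genes. This comparison shares the DMSO with PE for 6 h arrays with the early one. Raised in the early comparison and lowered in the later were 33 genes, and how many of all genes did so was not counted. Of the 35, 26 passed in all alternative analyses.

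The largest fall from 6 h to 48 h was that of Nolc1 (-0.54 ± 0.05, adjusted p = 2.7e-06), whose 48 h values of 9.51, 9.45 and 9.39 lay close to the unstimulated ones. Its second probe set also fell (-0.45 ± 0.05) but was still above unstimulated cells, as given for 48 h, so a return to the unstimulated level rests on 1 probe set. Rrp12 fell to 9.19, 8.94 and 9.02 (-0.52 ± 0.07), still above every unstimulated array. Noc4l, a small subunit factor, went from 8.47, 8.60 and 8.48 unstimulated to 8.99 and 9.09 at 6 h and to 8.61, 8.47 and 8.53 at 48 h (-0.50 ± 0.06). Its 48 h arrays overlapped the unstimulated ones.

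Both polyamine enzymes fell, Srm to 10.34, 10.24 and 10.28 (-0.50 ± 0.05) and Odc1 to 11.50, 11.42 and 11.54 (-0.29 ± 0.04). The 48 h arrays of Srm remained above the unstimulated range and those of Odc1 overlapped it. Among the scaffold proteins all 4 fell, Mybbp1a by 0.47 ± 0.05, Gnl3 by 0.41 ± 0.04 and Ncl by 0.26 ± 0.05. Wdr74, Nob1 and Nip7 fell by 0.43, 0.43 and 0.42 (SE 0.05, 0.04 and 0.04). Nob1 is the nuclease that makes the last cut of the small subunit RNA.

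A few genes did not follow this course. Nhp2, a core protein of the box H/ACA particle, went on rising, from 10.09 and 10.15 at 6 h to 10.36, 10.29 and 10.38 at 48 h (0.22 ± 0.05, adjusted p = 0.00514), with no overlap. It was the only gene of the 44 raised at 48 h against 6 h, and it passed in all alternatives. Without array 2 of DMSO with PE for 6 h a second gene passed. Rrs1 (0.13 ± 0.06) and Polr1c (0.08 ± 0.05) lay above their 6 h means without passing.

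**Figure D3:**
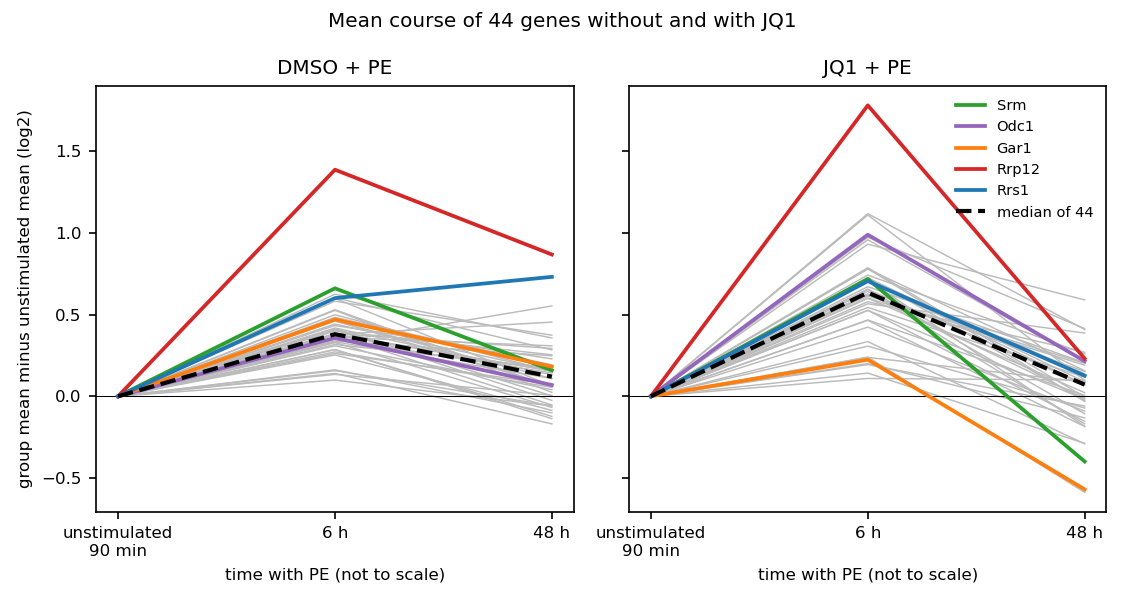
Group mean minus unstimulated mean (log2, vertical axis) at 90 min without PE and 6 h and 48 h with PE (horizontal axis, not to scale), for DMSO (left) and JQ1 (right), with 1 grey line per gene, 5 genes in colour and the median of the 44 dashed. The median peaks at 6 h in both, at 0.38 with DMSO and 0.63 with JQ1, and Rrs1 with DMSO stays up at 48 h.

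At 6 h of PE more of the genes were higher than lower with JQ1. Of the 44, 26 were higher than with DMSO and 3 were lower, against 25.5% raised and 28.8% lowered among all genes. The median difference was 0.22 against 0.000 for all genes, and 38 of 44 differences were above 0. Of the 26, 22 passed in all alternatives. The deposited JQ1 arrays have lower medians, and centring every array on its median moved the all-gene median to 0.099 and the counts to 35 raised and 1 lowered.

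The largest increase with JQ1 at 6 h was that of the brightest Polr1d probe set (1371351_at), at 11.68 and 11.69 with DMSO and 12.33, 12.34 and 12.39 with JQ1 (0.67 ± 0.05, adjusted p = 1.2e-07). Its other probe set (1388404_at) went the opposite way, by -0.48 ± 0.05 (adjusted p = 3.7e-06 among all probe sets). The direction for Polr1d therefore depends on the probe set. Bop1, of the large subunit, read 9.15 and 9.19 with DMSO and 9.85, 9.79 and 9.78 with JQ1, a 1.55-fold rise (0.64 ± 0.05). Odc1 read 12.41, 12.38 and 12.43 with JQ1, a 1.55-fold rise over DMSO (0.63 ± 0.04, adjusted p = 8.7e-08). For Bop1 and Odc1 every JQ1 array lay far above both DMSO arrays.

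The polyamine enzymes thus differed at 6 h, since Srm read 10.89, 10.82 and 10.82 with JQ1, overlapping its DMSO arrays (0.06 ± 0.05, 95% interval -0.05 to 0.17). Polr1b rose by 0.49 ± 0.06 and Polr1a by 0.17 ± 0.07, while Polr1c fell by 0.14 ± 0.05 from 10.39 and 10.47 to 10.35, 10.28 and 10.24. These Polr1c arrays did not overlap, but the call was lost in some alternatives, as was that of Polr1a.

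All 4 box C/D proteins rose with JQ1 at 6 h: Nop56 by 0.60 ± 0.05, Nop58 by 0.40 ± 0.06, Fbl by 0.33 ± 0.04 and Rrp9 by 0.24 ± 0.05. Fbl read 11.63, 11.65 and 11.58, above both of its DMSO arrays. None of the 3 box H/ACA proteins rose. Gar1 fell from 9.54 and 9.52 to 9.31, 9.30 and 9.25 (-0.25 ± 0.04, adjusted p = 1.8e-04) and Nhp2 fell from 10.09 and 10.15 to 9.97, 9.83 and 9.91 (-0.22 ± 0.05, adjusted p = 0.00295). Both were without overlap, and the Nhp2 call was lost in some alternatives. Dkc1 differed by 0.04 ± 0.06.

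Ncl and Gnl3 rose among the scaffold proteins, by 0.46 ± 0.05 and 0.49 ± 0.04. Ncl read 13.05, 12.94 and 12.93 with JQ1, higher than on any other array. Nolc1 read from 9.97 to 10.03 over its 3 JQ1 arrays and overlapped its DMSO arrays (0.02 ± 0.05). Its second probe set, only slightly dimmer over all arrays (9.57 against 9.66), rose by 0.48 ± 0.05, so the call for Nolc1 depends on the probe set. Of the small subunit factors 8 of 12 rose, led by Heatr1 (0.53 ± 0.06), Imp4 (0.41 ± 0.05), Imp3 (0.41 ± 0.06) and Rrp12 (0.39 ± 0.07). Imp3 and Imp4, which join the U3 particle to the precursor, had not passed with PE alone. Rrp12 read 10.05, 9.89 and 9.95 with JQ1, above both DMSO arrays. By their brightest probe sets 8 of 15 large subunit factors rose and none fell, and their median was 0.20. With centred arrays all 15 rose, where 35.7% of all genes did. Mrto4, 1 of the 15, had a dimmer probe set that fell (-0.37 ± 0.06, adjusted p = 1.3e-04 among all probe sets).

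At 48 h the genes were split. With JQ1 22 were lower and 10 higher than with DMSO, against 29.6% lowered and 30% raised among all genes, and the median was -0.14 against 0.017. This split depends on the scaling: with arrays centred on their medians 13 were lower and 16 higher, against 22.7% and 42.4% of all genes, and the medians were -0.03 for the list and 0.13 for all genes. The distance of the list's median from that of all genes was -0.155 in both. Lowered under all alternatives were 13 genes, Rrp12, Srm, Nop58, Gar1, Nhp2, Rrs1, Rrp9, Polr1c, Mybbp1a, Utp20, Heatr1, Ppan and Ebna1bp2. Raised under all alternatives were 8, Odc1, Ncl, Nop56, Bop1, Rrp1, Polr1d, Imp3 and Nob1.

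The largest decrease was that of Gar1, from 9.31, 9.22 and 9.20 to 8.51, 8.47 and 8.49, 1.68-fold lower (-0.75 ± 0.04, adjusted p = 1.6e-09). Rrp12 went from 9.19, 8.94 and 9.02 to 8.49, 8.39 and 8.36, 1.56-fold lower (-0.64 ± 0.06, adjusted p = 1.8e-06), and its other probe sets fell by 0.39 and 0.46. Rrs1 went from 10.23, 10.21 and 10.16 to 9.65, 9.53 and 9.61 (-0.60 ± 0.05, adjusted p = 2.5e-07). None of the 3 overlapped, and Gar1 with JQ1 was below even the unstimulated arrays, which read 9.04, 9.08 and 9.06.

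Srm read 9.71, 9.68 and 9.79 with JQ1 at 48 h, against 10.34, 10.24 and 10.28 with DMSO (-0.56 ± 0.04, 1.47-fold lower, adjusted p = 1.5e-07). All 3 values were below the unstimulated ones. Odc1 moved the other way, to 11.64, 11.61 and 11.65 (0.15 ± 0.04, adjusted p = 0.00516), without overlap. The genes for both steps from ornithine to spermidine were thus on opposite sides of DMSO.

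The remaining large decreases were those of Utp20 (-0.52 ± 0.06), a scaffold of the small subunit precursor, Nhp2 (-0.45 ± 0.05), Polr1c (-0.37 ± 0.04) and Ebna1bp2 (-0.33 ± 0.04). All 3 box H/ACA proteins fell, Dkc1 by 0.23 ± 0.06, a call that some alternatives lost. The box C/D proteins did not move together: Nop58 fell by 0.30 ± 0.05 and Rrp9 by 0.24 ± 0.05, Nop56 rose by 0.26 ± 0.04, and Fbl, at 10.97, 11.02 and 10.96 against 11.11, 11.04 and 11.06, did not pass (-0.08 ± 0.04). Nop56 and Nop58 are paralogs that sit side by side in the same particle.

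Among the raised genes Polr1d read 12.03, 12.04 and 11.97 with JQ1 against 11.51, 11.46 and 11.52 (0.52 ± 0.04), and again its other probe set fell, by 0.20 ± 0.04. Imp3 read 10.30, 10.27 and 10.32 against 9.96, 9.77 and 9.83 (0.44 ± 0.06, adjusted p = 1.4e-05). Rrp1, of the large subunit, read 9.53, 9.59 and 9.59 against 9.33, 9.26 and 9.29 (0.28 ± 0.05). In all of them the JQ1 arrays were the higher ones without overlap. Ncl (0.25 ± 0.04), Bop1 (0.22 ± 0.05), Polr1b (0.15 ± 0.05), Nolc1 (0.14 ± 0.04) and Nob1 (0.12 ± 0.04) also rose. Nolc1 and Polr1b lost the call in some alternatives, and the second Nolc1 probe set differed by -0.06 ± 0.04 without passing.

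**Figure D4:**
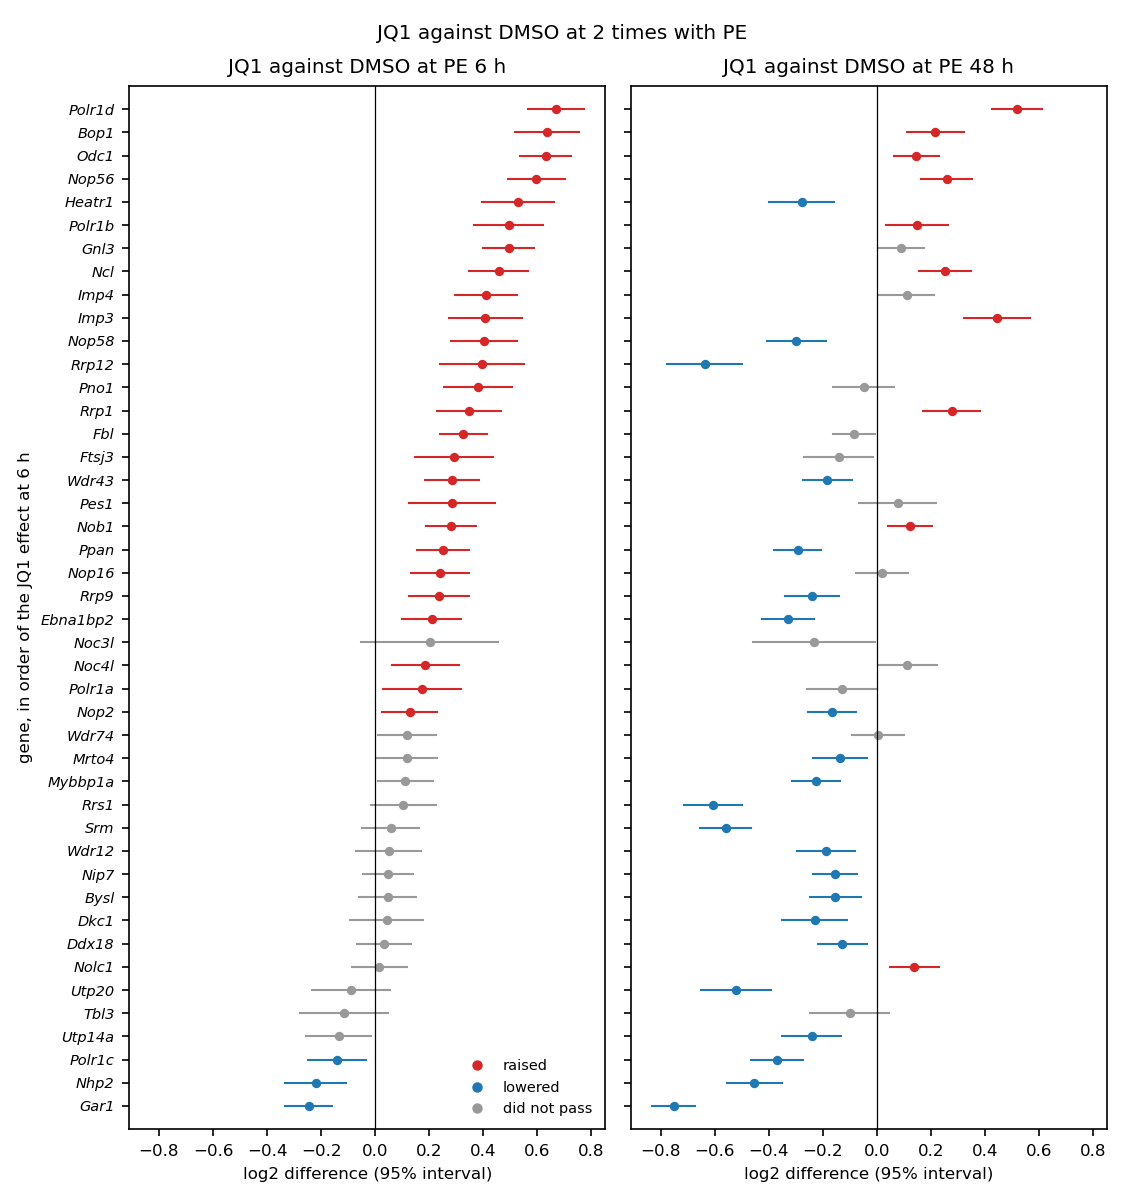
Log2 difference of JQ1 against DMSO at 6 h (left) and 48 h (right) of PE for the 44 genes, ordered by the effect at 6 h (vertical axis), with 95% intervals from the limma fit and colours for raised, lowered and not passed. Rrp12 and Heatr1 lie right of 0 at 6 h and left of it at 48 h, whereas Gar1, Nhp2 and Polr1c lie left of it in both.

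The change of the JQ1 effect with time was tested as the effect at 48 h minus that at 6 h. It was lower at 48 h for 34 of 44 genes and higher for none in the limma fit (0 at an unadjusted p below 0.05), against 18.3% lower and 20.4% higher among all genes, and the median was -0.30 against 0.006. Centring the arrays left 32, and 23 genes passed in all alternatives. The largest difference was that of Rrp12 (-1.03 ± 0.10, adjusted p = 3.7e-06), followed by Heatr1 (-0.81 ± 0.08), Rrs1 (-0.71 ± 0.07), Nop58 (-0.70 ± 0.08), Srm (-0.62 ± 0.06), Ppan (-0.55 ± 0.06), Ebna1bp2 (-0.54 ± 0.07) and Gar1 (-0.51 ± 0.05). These counts rest on the brightest probe sets. The dimmer Polr1d probe set was higher at 48 h (0.28 ± 0.07, adjusted p = 0.00518 among all probe sets), and its brightest did not pass (-0.15). For Nolc1 the second probe set was lower (-0.54 ± 0.06, adjusted p = 3.1e-05 among all probe sets), and the brightest did not pass (0.12). The dimmer Mrto4 probe set did not pass (0.06 ± 0.08), unlike its brightest (-0.25).

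By calls, 8 genes were raised by JQ1 at 6 h and lowered at 48 h: Rrp12, Nop58, Nop2, Wdr43, Rrp9, Heatr1, Ppan and Ebna1bp2. Nop2 lost both calls in some alternatives and Wdr43 the one at 48 h, where its second probe set was at -0.08 ± 0.05 (adjusted p = 0.148 among all probe sets). Another 9 were raised at both times, 9 were raised at 6 h and did not pass at 48 h, and 11 did not pass at 6 h and were lowered at 48 h. The 3 lowered at 6 h, Gar1, Nhp2 and Polr1c, were lowered at 48 h as well. Among all genes 25.5% were raised and 28.8% lowered at 6 h, and 30% and 29.6% at 48 h. How many of all genes had each pair of calls was not counted. By brightest probe sets, each role group held genes with a lower effect at 48 h. These were 4 of 4 box C/D proteins, 3 of 3 box H/ACA proteins, both polyamine enzymes and 3 of 4 polymerase subunits. They also included 3 of 4 scaffold proteins, 8 of 12 small subunit and 11 of 15 large subunit factors. For Imp3 the difference did not pass, with an effect of 0.41 at 6 h and 0.44 at 48 h (difference 0.04 ± 0.08).

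Against unstimulated cells, JQ1 with PE for 6 h raised 43 of 44 genes by their brightest probe sets and lowered none. Among all genes 30.9% were raised and 31.7% lowered. The median was 0.63 against 0.028 for all genes. This comparison has the unstimulated arrays in common with that of PE alone, whose median was 0.38. Rrp12 was 3.44-fold up (1.78 ± 0.06), Bop1 2.17-fold, Heatr1 2.16-fold, Odc1 1.98-fold and Nop56 1.96-fold. The one that did not pass was Nhp2 (0.11 ± 0.05, adjusted p = 0.0581). The dimmer Polr1d probe set fell in this comparison (-0.40 ± 0.04, adjusted p = 3.6e-06 among all probe sets). That of Mrto4 was at -0.12 ± 0.05 and did not pass (adjusted p = 0.0549 among all probe sets). At 48 h of JQ1 with PE 17 genes were above and 10 below unstimulated cells (31.6% and 29.2% of all genes). With centred arrays these were 23 and 5 (45.4% and 22.6% of all genes). The list's median lay 0.039 above that of all genes in both. The lowest were Utp20 (-0.59 ± 0.06), Gar1 (-0.57 ± 0.04) and Srm (-0.40 ± 0.04), and the highest Polr1d (0.59 ± 0.04), Nop56 (0.41 ± 0.04) and Bop1 (0.41 ± 0.05). The other Polr1d probe set was at -0.05 ± 0.04 and did not pass (adjusted p = 0.356 among all probe sets), so its place rests on the brightest one. Over the arrays, the median of the 44 differences from the unstimulated mean was 0.38 and 0.41 with PE for 6 h, 0.63 to 0.68 with JQ1 added, 0.11 to 0.12 with PE for 48 h and 0.05 to 0.07 with JQ1 added.

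**Figure D5:**
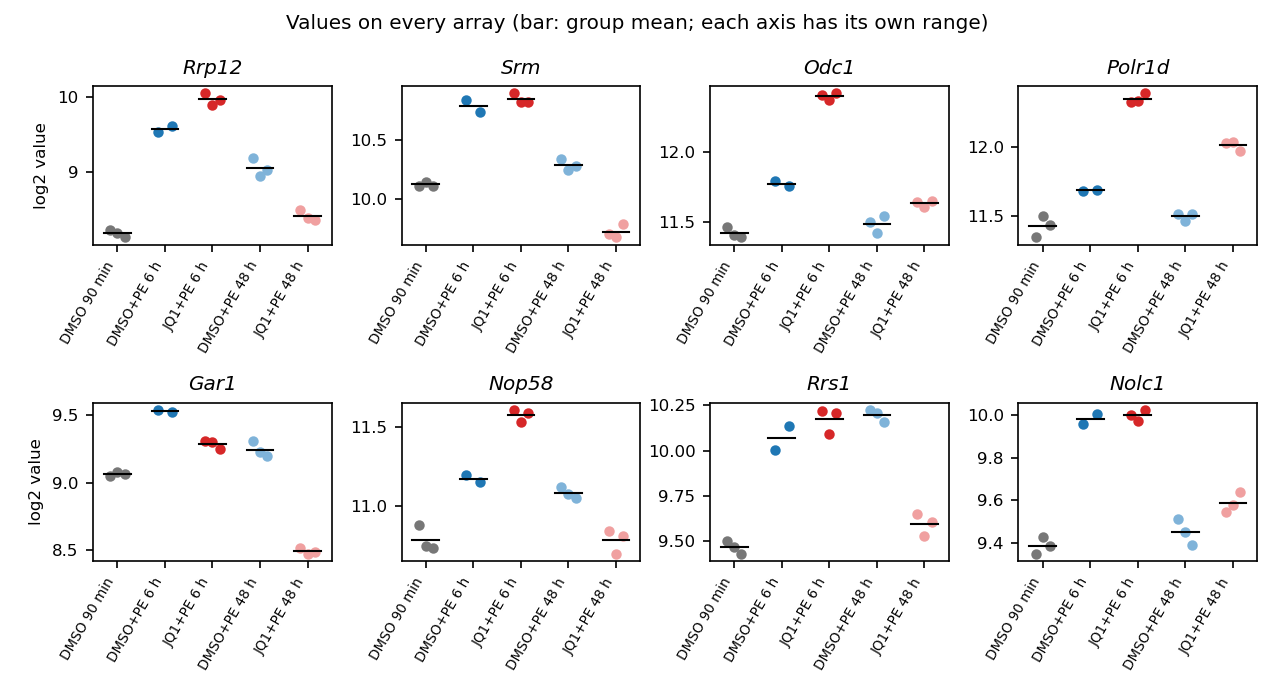
Log2 values (vertical axes, each with its own range) of 8 genes on every array of the 5 groups (horizontal axes), with a bar at each group mean. Srm and Gar1 are lowest with JQ1 at 48 h, Odc1 and Polr1d highest with JQ1 at 6 h, and Rrs1 with DMSO stays near 10.2 at 48 h.

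Further genes of the same pathway were counted in lists of other factors, made without the 44. With PE for 6 h against unstimulated cells, where 18.3% of all genes were raised and 18.9% lowered, 24 of 39 other small subunit factors rose and 1 fell, with a median of 0.23. The smallest adjusted p was that of Wdr46 (0.56 ± 0.05). Of 43 other large subunit factors 28 rose and 1, Nop53, fell (-0.18 ± 0.04). Rrp8, a nucleolar methyltransferase-like protein, rose most clearly (0.88 ± 0.06). Of 10 other polymerase I subunits and factors 5 rose, among them Polr1e (0.65 ± 0.05) and Polr1h (0.47 ± 0.05). Of 11 other small nucleolar ribonucleoprotein factors 3 rose and 1 fell, and of 12 RNA exosome genes 5 rose and 3 fell. None of 20 cytoplasmic ribosomal protein genes passed in the limma fit, their median was 0.008, and 0 had an unadjusted p below 0.05 in either direction.

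With JQ1 at 6 h (25.5% raised and 28.8% lowered among all genes), 22 of the 39 small subunit factors rose and 5 fell, led by Aatf (0.81 ± 0.05) and Rcl1 (0.66 ± 0.05) upward and Ltv1 (-0.69 ± 0.07) downward. Of the 43 large subunit factors 25 rose and 7 fell, with Nol8 (0.70 ± 0.05) and Ddx31 (0.69 ± 0.06) among the raised and Rrp8 (-0.56 ± 0.06) among the lowered. At 48 h (30% raised and 29.6% lowered among all genes) 9 of the 39 small subunit factors rose and 8 fell, both smaller shares than among all genes, Ltv1 by 0.88 ± 0.06. Of the large subunit factors 20 rose and 14 fell, Rrp8 by 1.36 ± 0.06 and Pak1ip1 by 0.89 ± 0.05. With centred arrays the counts at 48 h were 15 and 2 for the small subunit and 24 and 8 for the large subunit. Among all genes 42.4% were then raised and 22.7% lowered. The effect of JQ1 was lower at 48 h than at 6 h for 20 of the 39 and higher for 3, and lower for 17 of the 43 and higher for 5. Among all genes it was lower for 18.3% and higher for 20.4%.

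Some other polyamine genes had larger differences with JQ1 than Odc1 and Srm. Sat1, the acetyltransferase that starts polyamine breakdown and export, rose 3.36-fold at 6 h (1.75 ± 0.07, adjusted p = 5.4e-10) and 2.30-fold at 48 h (1.20 ± 0.06). Sms, spermine synthase, rose by 0.98 ± 0.05 and 0.80 ± 0.05, and Amd1, which supplies the aminopropyl donor, by 0.83 ± 0.05 and 0.78 ± 0.05. Sat2 fell by 1.17 ± 0.04 at 6 h and 0.31 ± 0.04 at 48 h. With JQ1 at 6 h 8 of these 18 genes rose and 4 fell, against 25.5% raised and 28.8% lowered among all genes. At 48 h 8 rose and 5 fell, against 30% and 29.6%. With PE alone at 6 h 6 rose and 3 fell, against 18.3% and 18.9% of all genes. Sat1 rose by 0.51 ± 0.07 and Sat2 fell by 0.67 ± 0.04.

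Myc, the factor that binds the E-box, read 8.52, 8.32 and 8.58 in unstimulated cells, 9.04 and 9.16 with PE for 6 h and 10.59, 10.43 and 10.40 with JQ1 added. Myc was thus higher with PE (0.63 ± 0.09, adjusted p = 1.0e-04) and 2.58-fold higher again with JQ1 (1.37 ± 0.09, adjusted p = 4.6e-08), with no overlap. At 48 h it read 8.38, 8.35 and 8.36 with DMSO and 8.25, 8.01 and 8.07 with JQ1 (-0.25 ± 0.08, adjusted p = 0.0146). Its JQ1 effect at 48 h minus that at 6 h was -1.62 ± 0.12. Mxd1, a partner of MAX that opposes MYC, rose with JQ1 by 1.17 ± 0.10 at 6 h and 0.58 ± 0.09 at 48 h. Of 11 genes of the MYC network 4 rose and 1, Mlx, fell with JQ1 at 6 h, and 5 rose and 3 fell at 48 h, with 25.5% raised and 28.8% lowered among all genes at 6 h and 30% and 29.6% at 48 h. Genes with the E-box had a median JQ1 effect of 0.20 at 6 h and -0.17 at 48 h (15 genes), and genes without it 0.24 and -0.13 (25 genes). The median of the effect at 48 h minus that at 6 h was -0.40 with the E-box and -0.24 without it. At 48 h 1 of the 15 was raised and 9 lowered, against 8 and 11 of the 25. The difference between genes with and without the E-box was not tested. These values are descriptions, and MYC binding was not measured.

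Markers of other heart cells were counted as well, with PE and with JQ1. Among all genes 18.3% rose and 18.9% fell with PE for 6 h, and 21.4% and 22.6% with PE for 48 h. With PE for 6 h, when 40 of the 44 genes rose, 5 of 8 smooth muscle and pericyte markers rose and 2 fell, with a median of 0.38 and a summed level of 14.34 to 14.38 against 14.08 to 14.16 in unstimulated cells. Of 9 fibroblast markers 1 rose and 1 fell, of 8 leukocyte markers 1 and 1, and of 7 endothelial markers 0 and 1. With PE for 48 h 6 smooth muscle markers rose and 1 fell, 5 fibroblast and 6 leukocyte markers fell, and none of these 2 lists rose. Endothelial markers had 1 raised and 2 lowered.

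With JQ1 more of these markers fell. The shares of all genes were 25.5% raised and 28.8% lowered with JQ1 at 6 h, and 30% and 29.6% at 48 h. With centred arrays 22.7% of all genes were lowered at 48 h. Differences between these short marker lists and all genes were not tested. Of 9 fibroblast markers 7 fell at 6 h and all 9 at 48 h (6 and 8 with centred arrays), with a median of -1.25 at 48 h, where Postn fell by 1.79 ± 0.04. Their summed level was 15.60 to 15.63 with DMSO and 15.36 to 15.39 with JQ1 at 6 h, and 15.43 to 15.46 and 14.47 to 14.54 at 48 h. With JQ1 the group mean of Tcf21 was 6.15 at 6 h and 6.18 at 48 h, below 6.23, and those of the other 8 were above it. Of 8 smooth muscle and pericyte markers 6 fell and 2 rose at 6 h, where their summed level was 14.46 to 14.47 with JQ1, above DMSO. At 48 h 7 fell (6 with centred arrays) and 1 rose, and Cnn1 fell by 2.02 ± 0.06, with summed levels of 14.44 to 14.47 with DMSO and 14.22 to 14.29 with JQ1. Of 7 endothelial markers 4 or 5 were below 6.23 in each group, and 3 fell with JQ1 at 6 h and 4 at 48 h. Of 8 leukocyte markers 2 to 5 were below it, and 4 fell at both times. For JQ1 with PE for 48 h against unstimulated cells all 8 leukocyte markers fell, where 29.2% of all genes fell. With centred arrays 7 fell, against 22.6% of all genes. Their summed level was 10.48 to 10.61 in unstimulated cells and 9.29 to 9.45 with JQ1 and PE for 48 h. Summed cardiomyocyte levels at 48 h were 17.16 to 17.18 with DMSO and 17.09 to 17.14 with JQ1. Single cardiomyocyte markers moved in both directions. Of 10, 1 rose and 4 fell with JQ1 at 6 h, and 4 rose and 4 fell at 48 h, where differences ran from -1.55 to 0.65. With PE against unstimulated cells 2 rose and 4 fell at 6 h, and 3 rose and 4 fell at 48 h. The part of these cells in the changes of the ribosome biogenesis and polyamine genes was not tested.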

How the data were processed

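Biotin-labelled RNA was measured on an Affymetrix rat array (labels' protocols). The authors deposited 1 log2 value per probe set and array. How they summarized and normalized the signals is not given in the sources used here, and the submitters' processing notes name limma without a role. The table held 20223 probe sets (values 2.71 to 14.70) on 14 arrays. By the platform's probe list, 18510 probe sets had 1 symbol, 305 had several, 1402 had none and 6 were controls. Symbols were updated through RefSeq (GRCr8): 18461 by gene identifier and 1 by accession, while 48 kept the platform's symbol. The brightest probe set stood for each of the 3797 genes with several, which left 13184 genes.

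A linear model with a mean for each of the 5 groups was fitted to all 14 arrays with limma 3.58.1 (lmFit, eBayes; R 4.3.3; 9 residual degrees of freedom, two-sided). P-values were Benjamini-Hochberg adjusted over all genes, with a threshold of 0.05. The fit was tested on simulated data. Other probe sets of a gene were fitted in a table of all probe sets. The number of arrays limits the precision: the median SE was 0.060 for 3 against 3 arrays and 0.068 for 2 against 3. Nothing in the labels says that arrays of a group were separate cultures, so the p-values reflect only how far these arrays differ, which may be technical. No 2 arrays held identical values.

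Values on every array are given for the first 7 genes of the list and for the 3 with the largest change in each direction past the threshold in 4 comparisons (PE 6 h, PE 48 h against 6 h, JQ1 at 6 h and at 48 h). Up to 8 genes in each direction were named per comparison, and up to 3 per context list by adjusted p. Dkc1 and Myc were given array by array, and further genes named to complete a role, after their values were seen. The genes, the role groups and the context lists were chosen with earlier results of these data known. Alternatives were the mean of a gene's probe sets, arrays centred on their medians, repeated quantile normalization, dim genes left out, a trended robust prior, array weights, only the groups compared, the replicate number as a block, and each array left out in turn. Arrays with the same number in different groups did not deviate together more than others, and the labels do not say what the number marks.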

Additional observations from a re-analysis of the deposited data

Results flagged for a closer look

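By brightest probe sets, the effect of JQ1 differed between 6 h and 48 h of PE for 34 of the 44 genes, each lower at 48 h. This is the interaction term of the limma fit, which was lower for 18.3% and higher for 20.4% of all genes. The log2 difference (effect at 48 h minus that at 6 h) was -1.03 for Rrp12, -0.81 for Heatr1, -0.71 for Rrs1, -0.70 for Nop58, -0.62 for Srm, -0.55 for Ppan, -0.54 for Ebna1bp2 and -0.51 for Gar1. It was -0.48 for Rrp9, -0.47 for Wdr43 and -0.29 for Nop2, which with Rrp12, Heatr1, Nop58, Ppan and Ebna1bp2 passed in opposite directions at the 2 times. How many of all genes did so was not counted. In some alternatives Nop2 lost the call at both times and Wdr43 that at 48 h. The cause was not tested.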

How the results depend on the processing

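Centring the arrays on their medians changed most: with JQ1 at 6 h 1 gene was lowered in place of 3, with JQ1 at 48 h 16 were raised in place of 10 and 13 lowered in place of 22, and with JQ1 and PE for 48 h against unstimulated cells 5 were lowered in place of 10. The deposited JQ1 arrays have lower medians, and the values do not tell which scaling is right. For PE for 48 h against unstimulated cells the 2 genes lowered became 4 with a trended robust prior and 1 with only the groups compared. For PE for 48 h against 6 h the 1 gene raised became 2 with the trended robust prior. Leaving out each array in turn gave 37 to 41 raised for PE at 6 h, 19 to 23 raised and 1 to 4 lowered for PE at 48 h, and 1 to 2 raised and 30 to 35 lowered for 48 h against 6 h of PE. With JQ1 it gave 23 to 27 raised and 2 to 4 lowered at 6 h, 8 to 11 raised and 20 to 23 lowered at 48 h, and 26 to 34 lower for the difference. For JQ1 with PE against unstimulated cells it gave 41 to 44 raised at 6 h, and 13 to 17 raised and 9 to 11 lowered at 48 h. Of single values, 1 reversed: Mrto4 with JQ1 at 6 h was -0.13 (adjusted p = 0.0304) with the mean of its probe sets, because its dimmer probe set was at -0.37 and its brightest at 0.12.

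Same-numbered arrays deviated together no more than others (r from -0.27 to 0.18 over 26 pairs, against -0.21 to 0.27 over 52). The deviations of so few arrays in a group depend on each other, so this check cannot decide whether a number marks a shared culture or batch. The labels do not say what it marks. With the replicate number as a block 340 single values kept their direction and side of the threshold, 11 lost the call and 1 gained it, and the counts were 40 raised for PE at 6 h and 32 lower for the difference of JQ1 effects. The median SE was 0.060 to 0.068, so small log2 differences were hard to call. Imp4 did not pass with PE for 6 h (0.13 ± 0.05), while Ddx18 passed with JQ1 at 48 h (-0.13 ± 0.04).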

Other observations

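The RNA exosome, which trims ribosomal RNA precursors from their 3' ends, did not move as a group. With JQ1 at 48 h 4 of 12 genes rose and 6 fell, with 30% raised and 29.6% lowered among all genes. With arrays centred on their medians 6 rose and 3 fell, against 42.4% and 22.7%. Exosc5 rose by 1.12 ± 0.06 and Exosc4 by 0.54 ± 0.04, while Dis3l, a cytoplasmic catalytic subunit, fell by 0.66 ± 0.07. Of 11 other small nucleolar ribonucleoprotein factors 6 rose and 2 fell. Nop10, the fourth core protein of the box H/ACA particle, rose with JQ1 by 0.27 ± 0.04 at 6 h and 0.51 ± 0.03 at 48 h, and Shq1, an assembly factor of dyskerin, by 1.12 ± 0.14 and 0.67 ± 0.13, while Gar1, Nhp2 and Dkc1 were lowered at 48 h. Ruvbl1, of the complex that assembles these particles, fell by 0.47 ± 0.07 and 0.68 ± 0.06. Of 20 ribosomal protein genes 2 rose and 2 fell with JQ1 at 48 h, with Rplp0 at 0.22 ± 0.03. With centred arrays 14 rose and none fell, where 42.4% of all genes rose and 22.7% fell.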
